A study of Rattus norvegicus with 18 samples.

Results

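Obese Zucker diabetic fatty (ZDF) rats on vehicle were compared with lean rats by the microRNAs (miRNAs) of their livers. The comparison used the 6 vehicle and the 6 lean libraries, 12 of the 18 libraries in the series, chosen by the group names of the count columns. All 401 mature miRNA rows of the table were examined, and 112 of them held enough counts to be tested. Per the labels, the vehicle rats were of the strain ZDF-Leprfa/Crl, of obese phenotype, 8 weeks old and given vehicle as the agent. The lean rats were also 8 weeks old, carried a lean phenotype label, had no agent label, and were listed under the same strain name as the obese rats. Only its name and phenotype label mark the lean group as lean, and its leptin receptor genotype is not given in the sources used here. The third group of the study, obese rats given colesevelam, entered the model fit and is not described. The study's stated design concerns miRNA changes between vehicle and colesevelam, and the lean libraries give the obese liver a lean counterpart.

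A miRNA is cut from a hairpin precursor that can yield a mature strand from each arm, called 5p and 3p, and usually one of them is kept and the other is degraded. The kept strand pairs with messenger RNAs mainly through its seed, the short stretch near its 5′ end, and lowers their translation and stability. ZDF rats lack a working leptin receptor, overeat, store fat in the liver and become diabetic, and liver miRNAs have been linked to sterol and fatty acid handling, insulin action and fibrosis.

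The mature miRNAs that passed the test of vehicle against lean are shown first, 5′ to 3′, with the seed (bases 2 to 8) in capitals. The letters are those of the deposited table, and the RefSeq miRNA table for GRCr8 held the same letters for all 363 rows that could be matched to it. miR-200b-3p, and miR-378b, miR-429 and miR-200a-3p shown further on, were not among those rows. The first 4 were higher in vehicle libraries and the last 3 lower.
miR-21-3p: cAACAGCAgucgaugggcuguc
miR-6215: uUUAGGGUugcagagccagg
miR-140-3p: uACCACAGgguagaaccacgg
miR-378a-3p: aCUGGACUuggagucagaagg
miR-200b-3p: uAAUACUGccugguaaugaugac
miR-182: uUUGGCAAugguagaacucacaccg
miR-142-5p: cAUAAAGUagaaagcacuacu

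No seed was shared among these 7. In the coordinates of the deposited table, whose genome build is not given in the sources used here, miR-21-3p lay at chr10:76197136-76197157 on the plus strand and miR-6215 at chr5:161800087-161800106 on the minus strand. miR-140-3p lay at chr19:50471313-50471333 on the plus strand and miR-378a-3p at chr18:55956665-55956685 on the minus strand. miR-200b-3p lay at chr5:176964182-176964204, miR-182 at chr4:57221577-57221601 and miR-142-5p at chr10:75051514-75051534, all on the minus strand. In the RefSeq annotation of GRCr8 the gene of miR-140 lay within Wwp2, that of miR-378a within Ppargc1b, that of miR-142 within Tspoap1 and that of miR-6215 within Iffo2.

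The libraries were unlike in depth, and this sets the precision of every level below. Lean libraries held 110353 to 881450 miRNA counts and vehicle libraries 37909 to 147314, and the groups' sums differed 4.94-fold. The difference of the log2 totals was −2.07 (two-sided exact permutation p = 0.00433, adjusted p = 0.0202 over 28 values compared per library). A count of 0, read as up to 3 counts, allowed 3.94 to 26.0 CPM (counts scaled to a common library total) in a lean and 19.6 to 74.8 CPM in a vehicle library, for counting error only. Rows with at least 1 count numbered 279 ± 26.3 in lean and 216 ± 22.5 in vehicle libraries (mean ± SD, n = 6), but 189 ± 9.81 and 191 ± 9.97 once every library was thinned to 32936 counts (exact permutation p = 0.758). Libraries of both groups also differed in the slope of miRNA level on GC content, −1.02 to −0.47 (log2 per 10 percentage points) in lean and −0.98 to −0.24 in vehicle libraries (exact permutation p = 0.242). A slope of −0.6, chosen after the data were seen, divided them into a shallow set (lean 1, 3 and 5, vehicle 1, 2, 3 and 6) and a steep set (lean 2, 4 and 6, vehicle 4 and 5), and results are given within both sets where they bear on a call. Lean 1 and 2 carry the same number in their names, as do lean 4 and 5, and vehicle 3 and 4. Whether every library stands for an animal of its own is not stated in the labels. The p-values therefore measure the spread among these libraries, part of which may be technical. The miRNA fit was also run with libraries of the same number summed, and the exact permutation tests were not.

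**Figure D1:**
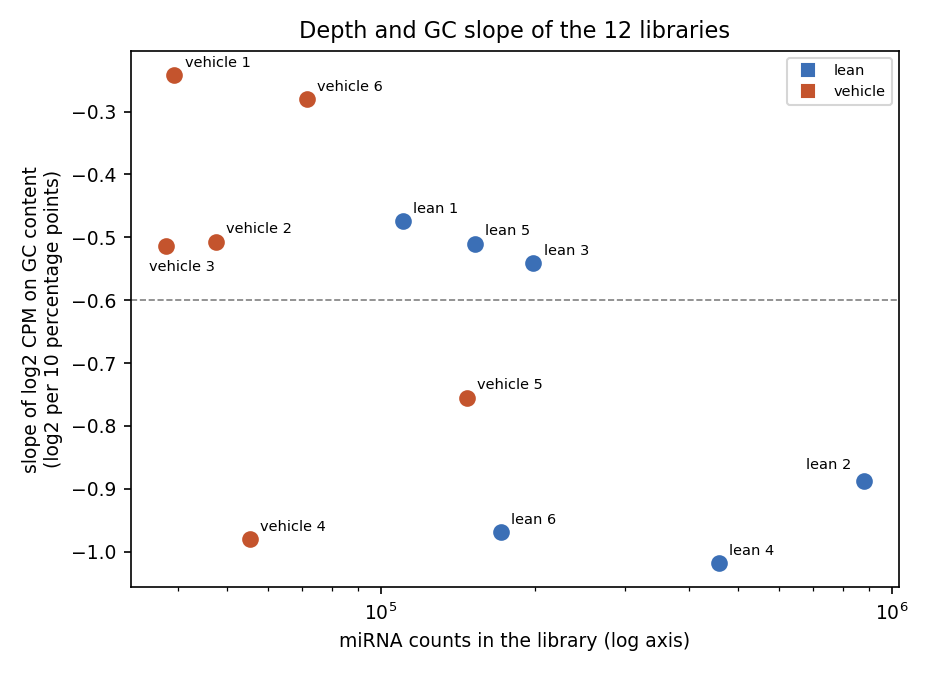
Each point is a library, lean or vehicle, placed by its total miRNA count (log axis) and its slope of log2 level on GC content (log2 per 10 percentage points), with a dashed line at −0.6. Vehicle libraries lie toward lower totals, and the slopes of both groups spread over a similar range.

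The liver's miRNA pool was made up mainly of the same miRNAs in both groups. The same 15 miRNAs were the most abundant 15 in lean and in vehicle libraries and made up 83.6% of the counts, and 1 of them, miR-378a-3p, passed the test. miR-192-5p, a liver-rich miRNA, ranked 1 in all 12 libraries. It stood at 159191, 259993 and 370540 CPM (lowest, median and highest lean library) and at 140794, 186850 and 262578 CPM in vehicle, and the groups overlapped. By the mean over both groups miR-22-3p, miR-21-5p, miR-378a-3p, miR-26a-5p and miR-148a-3p followed, with log2 fold changes of vehicle over lean of 0.31, 0.19, 0.80, 0.02 and −0.45. The 10 most abundant miRNAs held 73.4 ± 4.01% of the counts of a lean library and 72.5 ± 2.96% of those of a vehicle library (exact permutation p = 0.725). The effective number of miRNAs, a measure of evenness, was 21.0 ± 3.66 and 22.8 ± 2.35 (exact permutation p = 0.303).

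Across the 112 tested miRNAs, 57 estimates lay above and 55 below 0, with a median log2 fold change of 0.01 and an interquartile range of −0.29 to 0.19. Estimates of 104 miRNAs were within 2-fold of lean, and for 71 the 95% interval of edgeR's model excluded a 2-fold change in either direction. Tested with edgeR's quasi-likelihood method and Benjamini-Hochberg (BH) adjustment, 7 miRNAs passed an adjusted p of 0.05, which is 6.25% of those tested. Of these 4 rose (3.57%) and 3 fell (2.68%). An unadjusted p under 0.05 was reached by 21 miRNAs (18.8%), and in 3 (2.68%) no vehicle library overlapped a lean one. Every fold change is set against the rest of a library's miRNAs. In the authors' deposited table, which scales the libraries differently, 110 of the 112 tested miRNAs lay below 0 and 2 above, with a median log2 fold change of −2.38, so a difference in total miRNA per unit of RNA and the scaling cannot be told apart here.

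**Figure D2:**
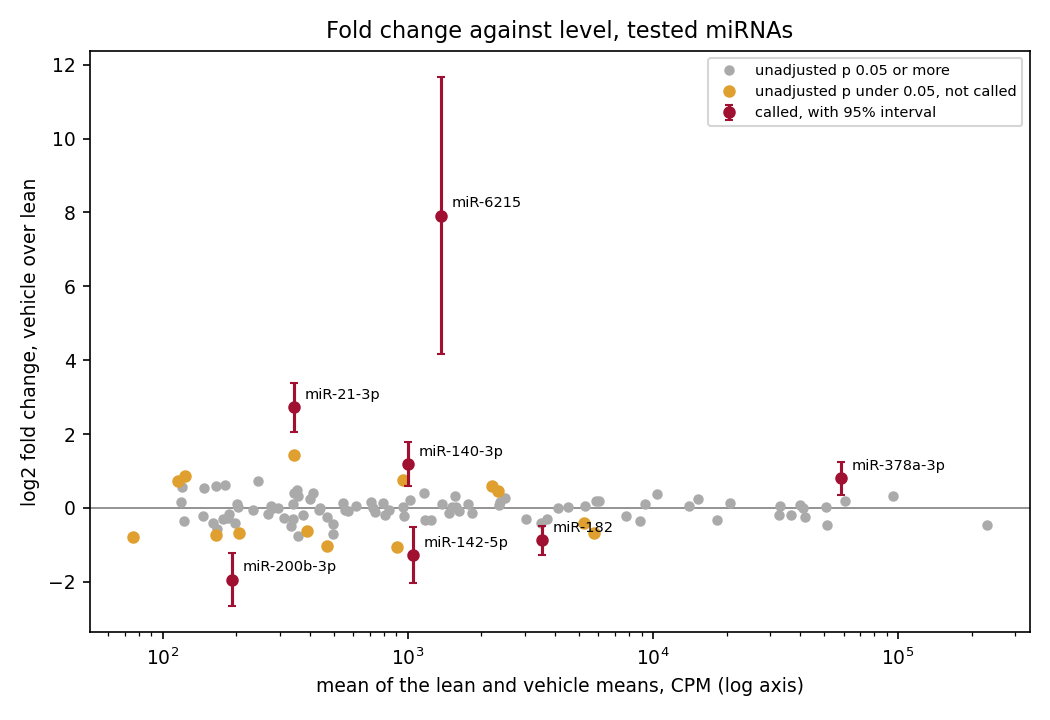
Each point is a tested miRNA, placed by its mean level over lean and vehicle libraries (CPM, log axis) and its log2 fold change of vehicle over lean, with the called miRNAs named and drawn with their 95% interval. Most points lie near 0 at all levels, and the 7 called miRNAs stand off it at low, middle and high levels.

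miR-21-3p, the strand of the miR-21 hairpin that is usually degraded, had the smallest p of the comparison. The hairpin is shown to place both strands, with the mature 5p and 3p arms in capitals, as in RefSeq for GRCr8 (92 bases).
miR-21 hairpin: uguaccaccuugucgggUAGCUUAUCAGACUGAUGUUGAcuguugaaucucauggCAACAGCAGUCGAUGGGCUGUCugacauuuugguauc
Lean libraries 1 to 6 held 69.3, 116, 92.5, 38.2, 108 and 112 CPM of miR-21-3p. Vehicle libraries 1 to 6 held 648, 789, 664, 359, 607 and 518 CPM. All 6 vehicle libraries lay above all lean ones, and the nearest pair was vehicle 4 and lean 2. Although the lean libraries were deeper, they held 169 counts of it in all, against 246 in vehicle. Its level rose 6.63-fold, a log2 fold change of 2.73 ± 0.32 (SE, edgeR adjusted p = 2.12e-06). In the authors' deposited table it was 1 of the 2 tested miRNAs above 0, at 0.34.

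The 5p strand of the same hairpin, miR-21-5p, known for its rise in liver injury and growth, moved far less. It stood at 36671, 57204 and 72712 CPM (lowest, median and highest) in lean and at 41670, 54654 and 111162 CPM in vehicle libraries, with 0.19 ± 0.24 as log2 fold change (edgeR adjusted p = 0.773). A ratio of the arms within a library needs no scaling between libraries. The 3p share of the hairpin's counts was 0.134, 0.168, 0.252, 0.0609, 0.216 and 0.154% in lean libraries 1 to 6. It was 1.53, 1.30, 1.33, 0.322, 0.751 and 1.08% in vehicle libraries 1 to 6. All vehicle shares lay above all lean shares, the nearest being vehicle 4 and lean 3. The mean log2 ratio of 3p to 5p went from −9.33 ± 0.71 to −6.70 ± 0.84, a difference of 2.64 (exact permutation p = 0.00216, the smallest that 6 against 6 can give, adjusted p = 0.0281).

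Among the 13 precursors of which both arms were tested, the ratio of miR-21 was the only one past the threshold (7.69%) and the only one without overlap. Leaving out any 1 library kept the miR-21 difference between 2.38 and 2.95. Its exact permutation p was then 0.00216 or 0.00433, the 2 smallest values that 5 against 6 can give, and the adjusted p 0.0281 to 0.0563 (over 0.05 without lean 1, 3, 4, 5 or 6), which says nothing of its stability. For miR-423 the 5p share was 33.1% of the counts in lean and 16.7% in vehicle libraries, a difference of −1.28 in the log2 ratio (exact permutation p = 0.0130, adjusted p = 0.0750). For miR-148a, whose 3p strand is linked to the handling of LDL, the 5p share was 3.88 and 5.76% (difference 0.60, exact permutation p = 0.0173, adjusted p = 0.0750). For miR-802, a miRNA linked to glucose handling in obese liver, the 3p share was 24.9 and 34.7% (difference 0.66, exact permutation p = 0.0260, adjusted p = 0.0797). Ratios of miR-126a (0.54) and miR-28 (−0.44) also had an adjusted p of 0.0797 in the exact permutation test, and those of the remaining 7 precursors had an unadjusted p of 0.149 or more. The log2 ratios of miR-378a and miR-122 differed by −0.15 and −0.16.

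**Figure D3:**
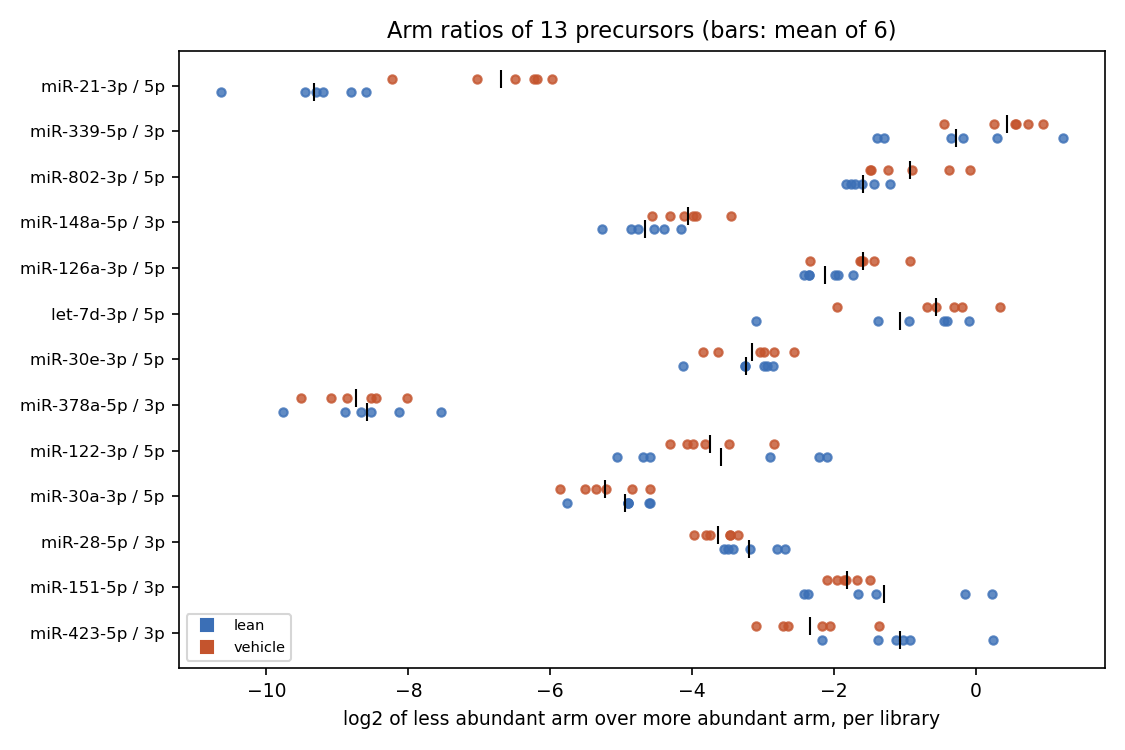
Each row is a precursor of which both strands were tested, and each point is the log2 ratio of its minor to its major strand in a lean or vehicle library, with a bar at the mean of 6. For miR-21 the vehicle points lie to the right of all lean points, and in the other 12 precursors the groups overlap.

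miR-378a-3p was the most abundant miRNA that changed. Its gene lies within Ppargc1b, which encodes PGC-1β, a coactivator of fat oxidation and fat synthesis, and the miRNA is known for counteracting it. Lean libraries 1 to 6 held 44149, 41680, 47923, 38540, 45306 and 39082 CPM, and vehicle libraries 1 to 6 held 100247, 67625, 87351, 50950, 49193 and 90182 CPM. The groups did not overlap, but vehicle 4 and 5 lay just above the highest lean library. Its rank among all miRNAs was 5 to 9 in lean and 2 to 7 in vehicle libraries, and its share of the counts was 4.29% in lean and 7.81% in vehicle. The log2 fold change was 0.80 ± 0.21 (edgeR adjusted p = 0.0199). The call was lost when lean 1, lean 4, vehicle 3 or vehicle 6 was left out (edgeR adjusted p = 0.0546 to 0.0679), with upper-quartile factors (0.0546) and without a filter on low counts (0.275). In the authors' deposited table, where the median of the tested miRNAs was −2.38, miR-378a-3p stood at −1.64. Within the steep set alone lean libraries held 38540 to 41680 and vehicle libraries 49193 to 50950 CPM, and within the shallow set 44149 to 47923 and 67625 to 100247 CPM.

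The other rows of that family gave smaller numbers in the same direction. miR-378b differs from miR-378a-3p by the substitution C2G (miR-378a-3p base first, positions from the 5′ end), which lies in the seed, so their seeds differ although reads may be shared.
miR-378a-3p: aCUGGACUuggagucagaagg
miR-378b: aGUGGACUuggagucagaagg
For miR-378b the log2 fold change was 0.73 ± 0.26, from 85.1 ± 25.8 to 145 ± 38.2 CPM (edgeR adjusted p = 0.110). It was 0.54 ± 0.43 for miR-378a-5p, the other strand of the hairpin (edgeR adjusted p = 0.547). In the list of miRNAs from PGC-1 host genes and thermogenic tissue 1 of 4 tested members rose, 3 lay above 0, and the median was 0.63, against 0.01 over all tested miRNAs. The 3 are all miR-378 rows, and the other 5 of the 8 members in the table (miR-365-3p, miR-193a-3p, miR-455-3p, miR-455-5p and miR-499-5p) had a lower mean in vehicle.

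miR-140-3p, from a hairpin inside Wwp2 that is best known from cartilage, rose 2.28-fold. Lean libraries 1 to 6 held 563, 522, 766, 657, 660 and 478 CPM and vehicle libraries 1 to 6 held 2145, 893, 1672, 1175, 764 and 1732 CPM. Vehicle 5 lay just below the highest lean library and the other 5 lay above it. On the log2 scale the rise was 1.19 ± 0.29 (edgeR adjusted p = 0.0100). With libraries whose names carry the same number summed, the edgeR adjusted p was 0.0666. In the authors' deposited table the value was −1.28, where the median of the tested miRNAs was −2.38. The other strand, miR-140-5p, was too low to test, at 70 counts over the lean and 5 over the vehicle libraries. Its mean was lower in vehicle, at 12.4 ± 11.6 against 32.8 ± 31.2 CPM in lean, and 40 of the lean counts came from lean 4.

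miR-6215, a miRNA with few counts in lean liver, had the largest and the most uneven change. Lean libraries 1 to 6 held 60.6, 0, 0, 9.56, 12.7 and 11.8 CPM, or 15 counts in all. Vehicle libraries 1 to 6 held 49.9, 3842, 7009, 3864, 784 and 836 CPM, or 857 counts. Vehicle 1 lay within the lean range, and the other 5 lay far above it. edgeR put the log2 fold change at 7.92 ± 1.76 (95% interval 4.17 to 11.7, edgeR adjusted p = 0.0100). With libraries whose names carry the same number summed it lost its call (edgeR adjusted p = 0.0643), and in a fit to the shallow set alone the edgeR adjusted p was 0.149. With the lean and vehicle libraries alone miR-6215 did not pass the filter on counts and was not tested. Its place among the tested miRNAs needs the colesevelam libraries in the fit.

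miR-200b-3p, a miRNA of epithelia that represses the transcription factors ZEB1 and ZEB2 and in liver marks bile duct cells, had the largest fall of the 3. Lean libraries 1 to 6 held 364, 363, 410, 265, 311 and 124 CPM, and vehicle libraries 1 to 6 held 24.9, 62.3, 148, 79.7, 78.4 and 82.5 CPM. Lean 6 lay below vehicle 3, and the other 5 lean libraries lay above all vehicle ones. The vehicle levels rest on 33 counts in all, 1 to 12 a library, against 592 in lean. On the log2 scale the change was −1.94 ± 0.35 (3.84-fold lower, edgeR adjusted p = 0.000653). In bulk tissue fewer cells of a type and less RNA per cell cannot be told apart.

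Relatives of miR-200b-3p were too low to test singly. They fall into seed groups, and the letters are shown because the seeds decide which rows can be summed.
miR-200b-3p: uAAUACUGccugguaaugaugac
miR-200c-3p: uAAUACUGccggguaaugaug
miR-429: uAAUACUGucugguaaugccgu
miR-200a-3p: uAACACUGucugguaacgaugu
Summed over the first 3, which share a seed, the level fell from 385 ± 88.3 to 128 ± 45.7 CPM, by −1.58 ± 0.27 on the log2 scale (edgeR adjusted p = 0.000369, with 82 seed families tested). Most counts of that sum, 592 in lean and 33 in vehicle, are those of miR-200b-3p itself, so it is no separate test of the relatives. Over the lean and the vehicle libraries miR-429 had 169 and 17 counts, miR-141-3p 154 and 16, miR-200a-3p 107 and 11, and miR-200c-3p 20 and 5. Of the 6 epithelial and bile duct members in the table, 5 had a lower mean level in vehicle, and miR-200c-3p had a higher one; among all untested rows with a count 62.1% had a lower mean. In all, 7 of the 82 seed families passed (8.54%), 4 higher and 3 lower, and each holds 1 of the 7 called miRNAs. All of them but the family of miR-200b-3p consist of 1 row, so they repeat the test of that row.

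miR-375-3p, abundant in pancreatic islets and found in many epithelia, missed the threshold. It stood at 330, 1298 and 1638 CPM (lowest, median and highest) in lean and at 219, 578 and 1097 CPM in vehicle libraries. The groups overlapped through lean 6, at 330 CPM, whose nearest lean neighbour stood at 1202 CPM. The log2 fold change was −1.07 ± 0.37 (edgeR adjusted p = 0.110), and without lean 6 it was −1.27 (edgeR adjusted p = 0.0161). Within the shallow set lean libraries held 1202 to 1638 and vehicle libraries 565 to 1097 CPM, and within the steep set 330 to 1517 and 219 to 287 CPM. The pancreas markers miR-216a-5p and miR-217-5p were at 3 and 3 counts over the lean and at 2 and 4 over the vehicle libraries.

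miR-182 is made with miR-96 and miR-183 from one cluster, which the sterol-sensing factor SREBP-2 induces. Lean libraries 1 to 6 held 4513, 6448, 3435, 3968, 4672 and 4457 CPM and vehicle libraries 1 to 6 held 2120, 1952, 2902, 3466, 2450 and 2026 CPM. The groups overlapped only by vehicle 4 and lean 3. The log2 fold change was −0.88 ± 0.19 (edgeR adjusted p = 0.00362), and the call was kept without any 1 of the 12 libraries (−0.98 to −0.76). miR-183-5p, from the same cluster, stood at 66.1, 94.1 and 145 CPM (lowest, median and highest) in lean and at 41.5, 51.1 and 79.7 CPM in vehicle libraries, with −0.80 ± 0.30 as log2 fold change (edgeR adjusted p = 0.119). The untested members of the sterol and SREBP-linked list were sparse: miR-96-5p had 16 counts in lean and 2 in vehicle, and miR-33-5p, encoded within the SREBP-2 gene and known to repress the cholesterol exporter ABCA1, had 31 and 3. Of the 2 tested members 1 fell, and their median was −0.84. The 4 untested ones, with miR-33-3p at 12 and 0 counts and miR-183-3p at 2 and 0, had a lower mean in vehicle, as did 62.1% of all untested rows with a count.

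miR-142-5p, a miRNA of blood cells, was the least secure fall. Lean libraries 1 to 6 held 840, 2610, 696, 1532, 838 and 2441 CPM and vehicle libraries 1 to 6 held 399, 789, 369, 737, 973 and 401 CPM. The high lean libraries are 2, 4 and 6, the steep set, and the other 3 lean libraries lay within the vehicle range. The log2 fold change was −1.27 ± 0.36 (edgeR adjusted p = 0.0328), and the call was lost in 8 of the 12 fits that left out 1 library (all but those without lean 1, lean 3, lean 5 or vehicle 5, edgeR adjusted p = 0.0516 to 0.148). Within the shallow set lean libraries held 696 to 840 and vehicle libraries 369 to 789 CPM, and within the steep set 1532 to 2610 and 737 to 973 CPM. Of the other leukocyte markers miR-150-5p, miR-146a-5p and miR-146b-5p were at −0.00, 0.03 and 0.01. The untested miR-223-3p had 104 and 7 counts in lean and vehicle (38.4 ± 28.8 and 11.6 ± 12.9 CPM). For miR-142-3p these were 63 and 5 counts (25.9 ± 15.9 and 13.3 ± 20.1 CPM), and for miR-155-5p 12 and 1 (8.68 ± 6.80 and 1.96 ± 4.81 CPM). Among all untested rows with a count 62.1% had a lower mean in vehicle. The leukocyte list had 1 fall among 4 tested members and a median of 0.01, which was −0.03 with the size factors of DESeq2.

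**Figure D4:**
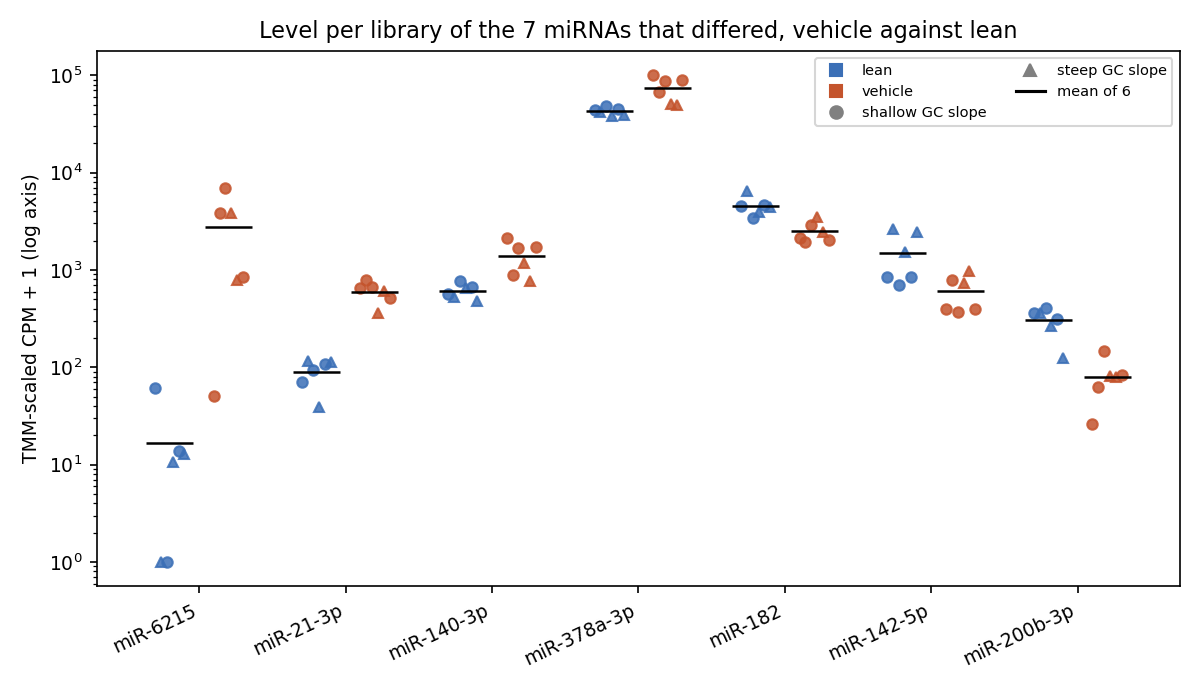
For each called miRNA, each point is its level in a lean or vehicle library (CPM + 1, log axis), with circles for the shallow and triangles for the steep set of GC slope, and each bar is the mean of 6 libraries. The groups are apart for miR-21-3p and miR-378a-3p, and for the other 5 miRNAs at least 1 library of a group lies within the range of the other.

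Depth moved with the group, so both were also entered in 1 fit. With log2 depth as a covariate miR-21-3p (2.44, edgeR adjusted p = 0.00125) and miR-200b-3p (edgeR adjusted p = 0.00787) kept their calls. miR-182 (−0.70, edgeR adjusted p = 0.137), miR-6215 (4.37, 0.146), miR-140-3p (0.73, 0.375), miR-378a-3p (0.40, 0.565) and miR-142-5p (−0.24, 0.803) lost theirs. With depth in the fit miR-122-5p (−1.24, edgeR adjusted p = 0.0465), miR-320-3p (−1.78, 0.00787), miR-423-5p (−2.26, 0.00644) and miR-193b-3p (−1.59, 0.0465) were called lower in addition. Depth and group cannot be told apart here, since only vehicle 5 is as deep as a lean library. After thinning all libraries to the same depth, 6 of the 7 called miRNAs could be tested and all 6 were called, while miR-200b-3p had too few counts left. The thinning was drawn at random and not repeated. It evens counting error and cannot remove a difference in composition that goes with depth.

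Within both sets of GC slope, 10 of the 112 miRNAs (8.93%) had no overlap between lean and vehicle libraries in the same direction. Libraries with the same number in their names fell in opposite sets, so the sets may not be independent. The slope was also computed from these miRNA levels, so agreement between the sets is no separate test. Higher in vehicle were miR-140-3p, miR-378a-3p, miR-532-5p and miR-21-3p (3.57%). Lower were miR-200b-3p, miR-182, miR-375-3p, miR-423-5p, miR-320-3p and miR-28-5p (5.36%). miR-532-5p, from an X-linked cluster inside Clcn5, stood at 41.3 to 121 CPM in lean and 125 to 199 CPM in vehicle libraries, the third miRNA with no overlap at all, with with 0.86 ± 0.31 as log2 fold change (edgeR adjusted p = 0.119). With the GC slope of each library as a covariate miR-423-5p moved from −1.03 to −1.65 (edgeR adjusted p = 0.234 and 0.000165) and miR-375-3p from −1.07 to −1.49 (edgeR adjusted p = 0.110 and 0.00132), and all 7 called miRNAs kept their calls.

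Among other miRNAs with an unadjusted p under 0.05 that were not called, 6 lay above 0 and 8 below, miR-378b, miR-532-5p, miR-375-3p, miR-183-5p and miR-423-5p included. Higher estimates were those of miR-23b-3p (0.59 ± 0.21, edgeR adjusted p = 0.110), miR-340-5p (0.75 ± 0.29, 0.135), miR-3068-3p (1.43 ± 0.62, 0.234) and miR-31a-5p (0.47 ± 0.22, 0.246). The gene that RefSeq places at the miR-3068 hairpin is named Snora58, a small nucleolar RNA. Lower estimates were those of miR-322-5p (−0.72 ± 0.30, edgeR adjusted p = 0.216), miR-27a-3p (−0.63 ± 0.28, 0.234), miR-126a-5p (−0.67 ± 0.31, 0.234), miR-872-5p (−0.69 ± 0.31, 0.234) and miR-30c-5p (−0.40 ± 0.19, 0.263).

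Neighbours in a cluster, which are usually made from one primary transcript, did not always lie on the same side of 0. In the cluster on chromosome 17 miR-23b-3p was at 0.59 ± 0.21, miR-27b-3p at −0.32 ± 0.19 and miR-24-3p at 0.12 ± 0.30. In the paralogous cluster on chromosome 19 miR-23a-3p was at 0.48 ± 0.25 and miR-27a-3p at −0.63 ± 0.28. None of these 5 was called, and the difference between neighbours was not tested. On chromosome X miR-322-5p was at −0.72 ± 0.30 and miR-351-5p at 0.05 ± 0.39. On chromosome 18 miR-145-5p was at −0.05 ± 0.31 and miR-143-3p at 0.09 ± 0.18. On chromosome 1 let-7e-5p (−0.29 ± 0.35) lay below 0, and miR-99b-5p (0.15 ± 0.29) and miR-125a-5p (0.04 ± 0.25) above. In some other clusters neighbours lay on the same side. Examples are miR-194-5p (−0.01 ± 0.19) and miR-192-5p (−0.46 ± 0.26) on chromosome 1, and miR-25-3p (0.32 ± 0.18) and miR-93-5p (0.40 ± 0.29) on chromosome 12. For miR-24-3p, miR-194-5p, miR-322-5p and miR-351-5p 2 locations are listed, so their levels may not be those of 1 cluster alone.

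Hepatocyte miRNAs were present at high levels in all 12 libraries, as the liver label calls for, and none passed the test without depth as a covariate. miR-122-5p, the classic hepatocyte miRNA, stood at 17865, 44506 and 81762 CPM (lowest, median and highest) in lean and at 21687, 43410 and 49567 CPM in vehicle libraries, with −0.24 ± 0.32 as log2 fold change (edgeR adjusted p = 0.789). Of 10 tested members of the hepatocyte list 8 lay below 0, 2 above and none passed, with a median of −0.27. Their summed share of the counts was 38.9 ± 5.94% in lean and 30.6 ± 5.84% in vehicle libraries, and the groups overlapped. Beside that share, the 3p strands together held 33.9 ± 2.44% of the counts in lean and 39.0 ± 4.40% in vehicle (exact permutation p = 0.0346, adjusted p = 0.109). Whether these shares are related was not tested.

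Among the miRNAs tied to insulin action none of 11 tested members passed, 8 lay above and 3 below 0, and the median was 0.03. miR-103-3p and miR-107-3p, which lower insulin sensitivity through caveolin-1, were at 0.40 ± 0.20 and 0.25 ± 0.23, miR-29a-3p at 0.27 ± 0.17 and miR-802-5p at −0.07 ± 0.31. In the list linked to bile acids and their receptor FXR none of 4 passed, with miR-22-3p at 0.31 ± 0.22 and a median of 0.13. Of the miRNAs linked to stellate cells and fibrosis miR-21-3p rose, and the other 4 tested members lay between −0.06 and 0.19, with miR-199a-3p at −0.06 ± 0.27, miR-143-3p at 0.09 ± 0.18 and miR-145-5p at −0.05 ± 0.31. Of its 5 untested members miR-214-3p (34 and 22 counts, 19.8 ± 19.3 and 59.8 ± 28.9 CPM), miR-199a-5p and miR-221-3p had a higher mean in vehicle, and miR-145-3p (117 and 16 counts, 61.4 ± 28.8 and 27.2 ± 26.6 CPM) and miR-222-3p a lower one.

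Markers of muscle, neurons and red cells gave few counts. No muscle or neuron marker could be tested: miR-133a-3p had 18 counts in lean and 6 in vehicle (11.1 and 11.3 CPM), and miR-9a-5p had 15 and 0 (7.21 and 0 CPM). The red cell marker miR-451-5p was at −0.59 ± 0.41 (edgeR adjusted p = 0.490), and the untested miR-144-3p had 157 and 22 counts (62.5 ± 42.9 and 46.8 ± 37.2 CPM). The endothelial pair miR-126a-3p and miR-126a-5p was abundant, at 1547 and 7080 CPM in lean and 1406 and 4435 CPM in vehicle libraries, with log2 fold changes of −0.14 ± 0.22 and −0.67 ± 0.31, neither called.

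The medians of large families lay between −0.20 and 0.23, against 0.01 over all tested miRNAs. Their members ranged from miR-19b-3p at −0.77 to miR-23b-3p at 0.59. No member passed among 9 tested of let-7 (median 0.02, or −0.04 with the size factors of DESeq2), 6 of miR-30 (−0.20), 4 of miR-17-92 and its paralogs (0.15), 4 of the miR-15 and miR-16 group (−0.19), 6 of the miR-10, miR-99 and miR-125 group (0.02), 3 of miR-181 (0.23) and 5 of miR-23, miR-27 and miR-24 (0.12). All 4 of the miR-15 and miR-16 group lay below 0, and all 3 of miR-181 above.

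**Figure D5:**
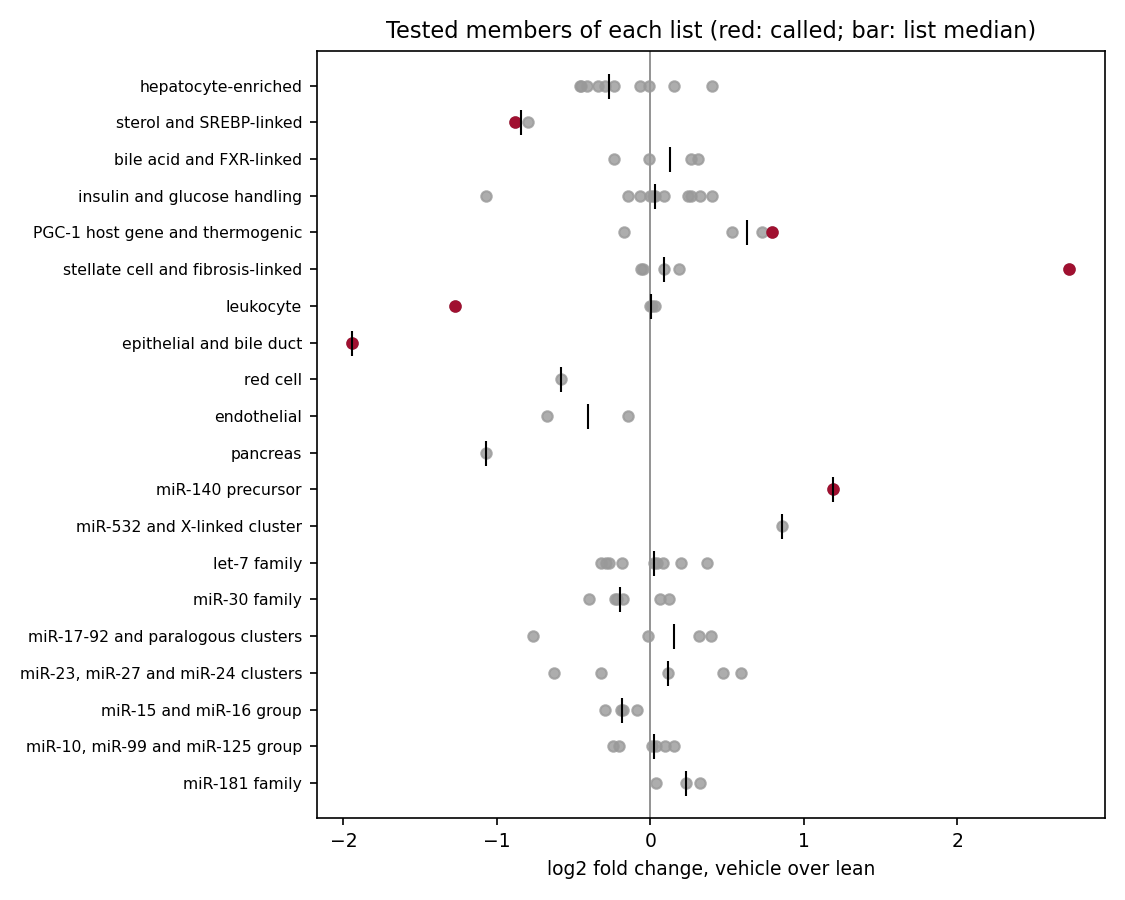
Each row is a miRNA list, each point the log2 fold change of vehicle over lean of a tested member, and the bar the list's median, with called members in red. Members of the large families lie between −0.77 and 0.59, and called members occur in the sterol, PGC-1, stellate, leukocyte, epithelial and miR-140 lists.

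Of the 289 rows too low to test, 180 had counts in both groups, 82 in lean alone, 18 in vehicle alone and 9 in neither. The highest sum found in vehicle alone was 4 counts, for miR-3558-5p, and in lean alone 43 counts, for let-7f-2-3p. Lean libraries held 4.94 times more counts, so few counts in lean alone show no difference. Without a filter on low counts let-7f-2-3p was called lower (log2 fold change −4.74, edgeR adjusted p = 0.0190), a fitted value that depends on the prior count. The same fit called miR-3558-5p higher on its 4 counts (3.47, edgeR adjusted p = 0.0190). It also called the row shared by let-7a-1-3p and let-7c-2-3p lower (−1.90, edgeR adjusted p = 0.0273).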

How the data were processed

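Small RNA was sequenced from flash-frozen rat liver, and per the labels' protocols a Norgen kit gave the total RNA and an Illumina TruSeq RNA kit the libraries; the step that selected small RNA is not described there. Deposited for each mature miRNA are estimated counts, unscaled, and 297 of their 7218 values (42 rows) are not whole. The deposited table also holds the authors' log2 fold changes. Bowtie 1.1.2 and DESeq2 1.18.1 were used, per the submitters' processing notes, while trimming, genome build, annotation and counter were not given in the sources used here. More than 1 location is listed for 46 rows, and 0 sample columns were left unmatched.

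Counts were rounded and rows kept by filterByExpr (minimum count 10, minimum total 15), which left 112 of 401 rows with 99.5% of the counts. TMM factors ran from 0.814 to 1.19. The test was that of edgeR 4.0.16 under R 4.3.3 (quasi-likelihood F test, robust, 1 fit to all 18 libraries, BH adjustment, threshold 0.05). The fitted coefficient of biological variation was 36.2%. Levels are given as CPM from TMM-scaled totals, and fold changes log2 ± SE. Seed families were tested likewise on summed counts. Arm ratios (0.5 added to each count) and values per library went through exact two-sided permutation tests of all 924 splits. The fit was also run on simulated counts with planted changes and the same spread for every miRNA. That setting is simpler than these data and says nothing of the calls made here. The alternatives used DESeq2 1.42.0, limma 3.58.1 and other scalings, filters, covariates and library sets. Named miRNAs are those called, those with an unadjusted p under 0.05, the 15 most abundant, members of the lists, both strands of tested precursors, and a few named for a count after their values were seen. The members, lists and tests were chosen with earlier results of these data known. Limits for 0 counts hold counting error alone: without molecular identifiers, reads are no independent molecules.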

Additional observations from a re-analysis of the deposited data

Results flagged for a closer look

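In 11 of 112 groups of 6 values checked, a library stood apart from the others of its group by Dixon's 95% critical value, where chance gives about 1 in 20. In 6 of the 11 that library was lean 6. It held the lowest lean level of miR-375-3p (330 CPM, nearest 1202) and of miR-31a-5p (1197 CPM, nearest 1960). It held the highest lean level of miR-3068-3p (702 CPM, nearest 129). It also had the lowest lean log2 arm ratio of miR-30a (−5.77, nearest −4.91) and of miR-30e (−4.12, nearest −3.26), and the lowest lean share of 3p strands (29.3%, nearest 33.8%).

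In other libraries, lean 1 was the highest lean library for miR-6215 (60.6 CPM, nearest 12.7) and lean 4 the lowest for miR-340-5p (535 CPM, nearest 705). Among vehicle libraries, vehicle 4 was the highest for miR-3068-3p (1434 CPM, nearest 467) and for miR-30a-5p (48162 CPM, nearest 33954), and vehicle 5 the highest for miR-322-5p (235 CPM, nearest 123). Without lean 6 the log2 fold change of miR-3068-3p was 2.56 (edgeR adjusted p = 0.00154) against 1.43 with all libraries, and without vehicle 5 that of miR-322-5p was −1.13 (edgeR adjusted p = 0.0203) against −0.72.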

How the results depend on the processing

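No direction of a called miRNA was reversed under the alternatives run, the authors' own scaling aside. Against 7 calls (4 higher, 3 lower), the fit with the replicate block gave 2 (1 and 1, miR-21-3p and miR-200b-3p; edgeR adjusted p = 0.0548 for miR-182 and miR-140-3p, 0.116 for miR-142-5p and 0.0821 for miR-378a-3p, with miR-6215 not tested), GC slope as a covariate 16 (7 and 9), and the libraries of steep GC slope alone 0 (0 and 0, with 11 at an unadjusted p under 0.05 in edgeR, 3 lean against 2 vehicle libraries). Higher calls were 2 with libraries of 1 name number summed and 1 with depth as a covariate; lower calls were 6 without a filter on low counts, 5 with depth as a covariate, 5 in the libraries of shallow GC slope and 5 with the GC slope set as a block. The GC slope sets were chosen after seeing the data. Leaving out 1 library gave 5 to 8 calls (3 to 5 higher, 2 to 4 lower), 4 to 10 seed families (2 to 7 higher, 2 to 4 lower) and 0 to 2 arm ratios, a count that the smallest p of 5 against 6 libraries limits. With lean and vehicle libraries alone miR-142-5p lost its call (edgeR adjusted p = 0.105) and miR-6215 was not tested. The other called miRNAs kept theirs in that fit, with miR-378a-3p at an edgeR adjusted p of 0.0417. Against 7 seed families, lean and vehicle libraries alone gave 4 (2 higher) and the replicate block 2 (1 higher, 1 lower). The cause was not tested for the other counts. Sample numbers did not pair the libraries: same-numbered deviations correlated from −0.58 to 0.55, and 1 of 6 lean libraries correlated best with its own number. Depth limits vehicle levels under about 75 CPM most.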
